A study of Mus musculus with 4 samples.

Results

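The genes examined here encode proteins that coat the lipid droplets of liver cells and enzymes that break down the fat stored in them. They are Plin2, Plin5, Cideb, Cidec, Pnpla2, Pnpla3, Mgll, Abhd5, Lipa and Lipe, 10 genes of the 12393 that the array annotation names singly. A probe set, the group of short probes that reads a transcript on this array, was included when its only annotated gene symbol was one of these, which gave 17 of the 22626 probe sets. They were picked by gene name, with earlier results of these data known. RNA was measured in livers of adult male C57BL6 mice killed on day 6 after an adenovirus injection. The arrays labelled lipin came from mice given a virus for mouse lipin 1beta (n = 2), and the GFP arrays from mice given a virus for green fluorescent protein (n = 2). Both groups therefore carried an adenovirus, and no source used here names the promoter of the transgene. The labels call the RNA of lipin replicate 2 polyA RNA and that of the other 3 samples total RNA. The labels do not state that the samples within a group are different mice. The p-values then measure only how far these samples vary, and that variation may be technical.

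A lipid droplet is a core of triacylglycerol and cholesteryl ester under a single layer of phospholipid studded with proteins. Coat proteins of the perilipin and CIDE families shield the core, join droplets and pass lipid on to secreted lipoproteins, while a chain of lipases takes off one fatty acid at a time from triacylglycerol, diacylglycerol and monoacylglycerol. In hepatocytes the released fatty acids are burned in mitochondria or rebuilt into lipoprotein fat, and some also serve as ligands of PPAR alpha, the nuclear receptor encoded by Ppara. A separate route carries droplet lipid to the lysosome, where an acid lipase degrades it.

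None of the 13 member probe sets that were bright enough to test passed the test between the arrays labelled lipin and the GFP arrays. At a limma adjusted p under 0.05, 0 members were higher and 0 were lower, as was the case for 0% of all 13576 probe sets tested, and 0 members had an unadjusted p under 0.05, against 4.39% of all probe sets tested. The median log2 difference of the 13 was -0.081, against 0.0038 over all probe sets tested, and single members ran from -0.88 for Plin5 to 0.80 for a probe set of Mgll. Of these probe sets 6 lay above 0 and 7 below. The groups did not overlap for 4 members (30.8%), a share near the 33.0% found over all probe sets tested. A difference between groups that exceeded the gap between the arrays of either group was seen for 1 member of 13, against 19.8% of all probe sets tested. The precision was low, since the 95% intervals of 7 members held both a 1.5-fold lower and a 1.5-fold higher level in the arrays labelled lipin.

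**Figure D1:**
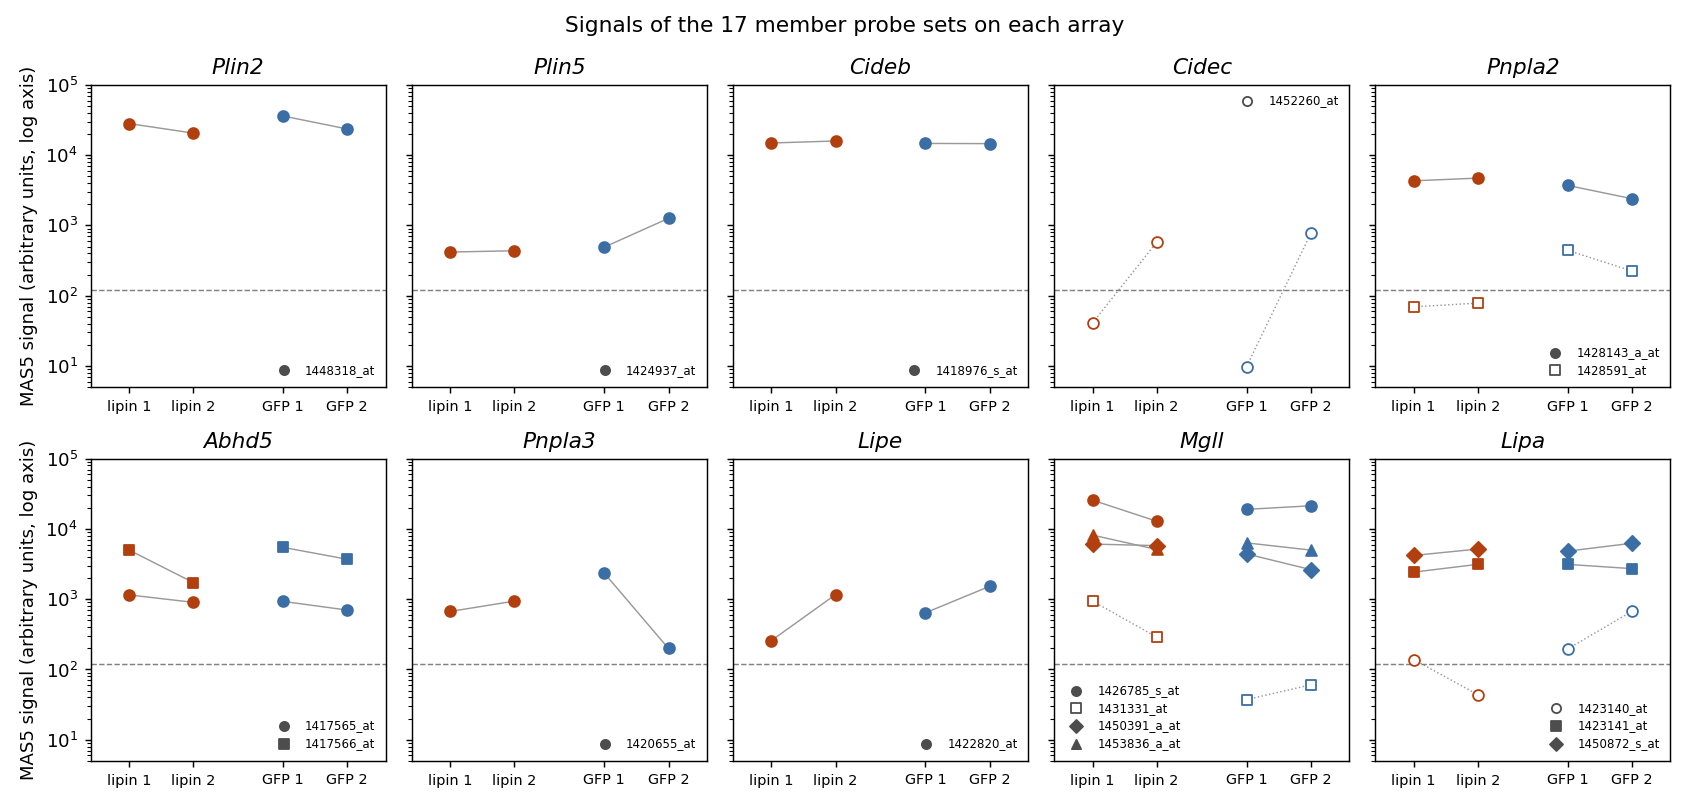
MAS5 signal (arbitrary units, log axis) of the 17 member probe sets on the arrays labelled lipin 1 and 2 (orange) and on GFP arrays 1 and 2 (blue). Filled symbols mark the 13 probe sets tested, open symbols the 4 too dim to test, grey lines join the arrays of a group, and the dashed line is the floor of 119.5 to which lower signals were raised. For most genes the points of the groups lie at the same height. Pnpla3, Lipe, Cidec and the dim probe sets of Mgll and Lipa spread widely within a group. The dim probe sets of Pnpla2, Mgll and Lipa had groups that did not overlap. In the arrays labelled lipin, Mgll was higher there, and Pnpla2 and Lipa were lower.

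The arrays themselves set limits on these values. The 2% trimmed mean of the signals was 1501 on every array, and the median signal ran from 618 to 675 on the arrays labelled lipin and from 582 to 746 on the GFP arrays. GFP replicate 2 was the least like the rest: its correlations with them averaged 0.731, against 0.781 to 0.793 for the other 3, and its beta-actin signal was 4.22 times as high at the 3' as at the 5' end, a mark of degraded RNA, against 1.77 to 2.86 times. The delivered gene checks the labels only in part. Of its probe sets, Lpin1 1418288_at read 2261 and 6719 on the arrays labelled lipin, against 2730 and 1430 on the GFP arrays, and 1426516_a_at read 3854 and 11087, against 7082 and 4632. Lipin replicate 1 was thus above GFP replicate 2 alone with 1418288_at and above neither GFP array with 1426516_a_at. Each direction below therefore rests on the label of that array. Whether these probes match the part of Lpin1 that the virus carries is unknown, and a probe outside it checks nothing.

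The tissue label was checked against its markers. Alb, the albumin gene of hepatocytes, read 809335 and 912532 on the arrays labelled lipin, against 571407 and 1069105 on the GFP arrays, and the 13 probe sets of 7 hepatocyte genes summed to between 2925049 and 3786619, against 2038488 to 4130993. Adipocytes, in which Lipe, Cidec and Mgll are abundant, had 8 probe sets for 5 of 8 marker genes, with sums of 2943 to 3915 on the arrays labelled lipin and 2829 to 4103 on the GFP arrays. Of these, 4 probe sets were bright enough to test. Groups did not overlap for 33.0% of all probe sets tested and for 2 of these 4, while the other 2 had overlapping groups. The first pair, higher in the arrays labelled lipin, were Plin4 (715 and 575, against 116 and 431) and Fabp4 1417023_a_at (504 and 647, against 323 and 335), while Retn and Fabp4 1425809_at had log2 differences of -0.53 and -0.67. The defining adipocyte genes Adipoq and Lep were too dim to test, at 350 and 709 for Adipoq against 315 and 34.0, and at 124 and 89.5 for Lep against 56.4 and 1111. Macrophages, which use Lipa heavily, had 11 probe sets for 9 of 10 genes, with sums of 54555 and 36842 against 57410 and 36551. Of 10 tested macrophage probe sets, 1 was higher and 0 were lower in both arrays labelled lipin than in both GFP arrays. The shares over all probe sets tested were 17.1% and 15.9%. The part of these cells in the member signals was not tested. In whole liver, fewer cells of a type and less RNA per cell cannot be told apart.

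Ppara is a known regulator of Plin2 and Plin5. It read 5452 and 13121 on the arrays labelled lipin, against 1688 and 1695 on the GFP arrays, or 2.32 ± 0.44 higher on the log2 scale (SE, 2 arrays a group; limma adjusted p = 0.660), so it did not pass either. PPAR alpha binds paired copies of a hexamer close to AGGTCA, and the promoters of the members were searched for it because the signal of the receptor's own transcript stood far above both GFP arrays. RefSeq windows (GRCm38.p6) from 250 bases before to 50 bases after a transcript start were found for all 10 genes, 14 windows in all. The hexamer AGGTCA, on either strand, was present in 4 of the 14 windows, against 16.3% of all 32851 windows of the same length. The 4 belong to 3 of the 10 genes, Plin2, Abhd5 and Plin5 with 2 overlapping windows, against 18.1% of the 27025 genes in the table. The full direct repeat of that hexamer with 1 base of any kind between the copies, which contains the hexamer, was in 0 of the 14 and in 0.0396% of all windows. An exact repeat this rare says nothing about 14 windows, and repeats that differ from these letters were not searched for. The hexamer begins 218 bases before the start of Plin2, 170 before a start of Plin5 and 69 before that of Abhd5, and another Plin5 window holds it 14 bases into the transcript. The lines below show 60 bases around each upstream match, 5′ to 3′ on the strand of the gene, with the hexamer or its reverse complement in capitals.
Plin2, chr4:86670245-86670304, minus strand: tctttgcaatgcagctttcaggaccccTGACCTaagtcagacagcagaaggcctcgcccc
Plin5, chr17:56117686-56117745, minus strand: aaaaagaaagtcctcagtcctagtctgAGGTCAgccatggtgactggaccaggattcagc
Abhd5, chr9:122351520-122351579, plus strand: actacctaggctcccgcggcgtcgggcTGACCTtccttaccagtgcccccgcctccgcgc
A match in these letters is a description and not a binding site.

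Neither perilipin passed the test, though both had lower means in the arrays labelled lipin. Plin2, the main droplet coat protein of hepatocytes, read 28189 and 20607 on the arrays labelled lipin, against 36104 and 23577 on the GFP arrays. The groups overlapped, with the array labelled lipin 1 above GFP replicate 2. The fitted difference was -0.28 ± 0.34 on the log2 scale (SE, 2 arrays a group; limma adjusted p = 0.962), or 1.21-fold lower, with a 95% interval of -1.01 to 0.46. It became -0.58 with GFP replicate 2 left out and 0.032 with GFP replicate 1 left out, so its direction depended on which control array was kept.

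Plin5, a perilipin of oxidative tissues that tethers droplets to mitochondria and holds Pnpla2 and Abhd5 at the droplet surface, read 418 and 437 on the arrays labelled lipin, against 492 and 1262 on the GFP arrays. Both arrays labelled lipin lay below both GFP arrays, as for 15.9% of all probe sets tested. The gap between the GFP arrays (2.57-fold) was larger than the difference between the groups, which was -0.88 ± 1.02 on the log2 scale (limma adjusted p = 0.962; 95% interval -3.06 to 1.29). Without GFP replicate 2, the array that stood apart, the difference was -0.20, and without GFP replicate 1 it was -1.56. The low value of Plin5 therefore rested mainly on 1 control array.

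Of the CIDE genes, Cideb varied the least of all tested members when arrays were left out, and Cidec was too dim to test. Cideb, the CIDE protein of hepatocytes that helps load lipid onto very-low-density lipoprotein, read 14909 and 15934 on the arrays labelled lipin, against 14698 and 14606 on the GFP arrays. Both arrays labelled lipin lay above both GFP arrays, which holds for 17.1% of all probe sets tested, but the gap was small. The log2 difference was 0.073 ± 0.31 (limma adjusted p = 0.985), or 1.05-fold, and the 95% interval ran from 0.67-fold to 1.66-fold. Over the 4 fits that each left out an array it stayed between 0.025 and 0.12. Its probe set, 1418976_s_at, is of a type that can also match transcripts of other genes, as are Mgll 1426785_s_at and Lipa 1450872_s_at below.

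Cidec, also known as FSP27, promotes the fusion of droplets and is a marker of adipocytes and of fatty liver. Its single probe set read 41.0 and 578 on the arrays labelled lipin, against 9.80 and 771 on the GFP arrays, so replicate 2 of each group was high and replicate 1 of each lay under the floor. The geometric mean after flooring was 282, below the 373 needed for testing, and no fold change is given. It was the member nearest to that limit from below, while Plin5 at 580 was the nearest from above.

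Triacylglycerol hydrolysis at the droplet starts with Pnpla2 and its activator, and these gave no common direction. Pnpla2, or ATGL, which takes the first fatty acid off triacylglycerol, read 4316 and 4721 with probe set 1428143_a_at on the arrays labelled lipin, against 3713 and 2401 on the GFP arrays. Both arrays labelled lipin lay above both GFP arrays, and the difference was 0.60 ± 0.39 in log2 units (limma adjusted p = 0.962; 95% interval -0.24 to 1.44), or 1.51-fold. It stood at 0.28 when GFP replicate 2 was dropped and at 0.91 when GFP replicate 1 was, and thus positive in each fit with an array left out. The other probe set, 1428591_at, was too dim to test and ran the other way, with 69.4 and 78.5 on the arrays labelled lipin, both under the floor, against 442 and 225 on the GFP arrays.

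Abhd5, or CGI-58, carries no lipase activity on triacylglycerol of its own and activates Pnpla2. Its brighter probe set, 1417566_at, read 5006 and 1728 on the arrays labelled lipin, against 5465 and 3699 on the GFP arrays, with lipin replicate 2 alone below the control range. The log2 difference was -0.61 ± 0.48 (limma adjusted p = 0.962), and it was 0.16 without lipin replicate 2. The dimmer probe set, 1417565_at, read 1150 and 903 against 930 and 700, which differed by 0.34 ± 0.71 (log2; limma adjusted p = 0.975). Its groups overlapped as well, so the probe sets of Abhd5 pointed in opposite directions and neither differed beyond the spread between arrays.

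Pnpla3, a droplet protein related to Pnpla2 that is known to be induced by lipogenic signals in liver and to bind Abhd5, had the widest gap between arrays of a group among the members tested. It read 669 and 940 on the arrays labelled lipin, against 2344 and 199 on the GFP arrays, so the GFP arrays enclosed both arrays labelled lipin and differed from each other by 11.8-fold. The log2 difference was 0.22 ± 1.05 (limma adjusted p = 0.986; 95% interval -2.03 to 2.46). It moved to 2.00 on leaving out GFP replicate 1 and to -1.56 on leaving out GFP replicate 2, and no direction can be given.

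Lipe, the hormone-sensitive lipase that removes a fatty acid from diacylglycerol and is most abundant in fat tissue, was likewise unsteady. It read 258 and 1163 on the arrays labelled lipin, against 640 and 1527 on the GFP arrays. The groups overlapped, and the arrays labelled lipin differed from each other by 4.51-fold. The log2 difference of -0.85 ± 0.94 (limma adjusted p = 0.962) became 0.23 without lipin replicate 1 and -1.94 without lipin replicate 2.

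**Figure D2:**
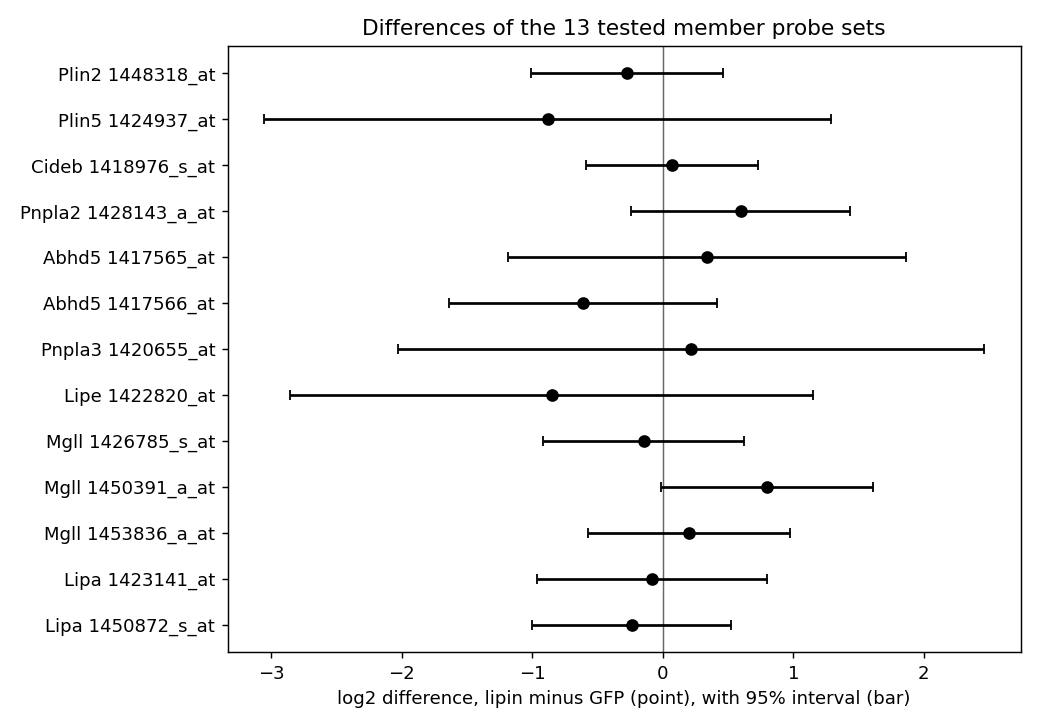
Log2 difference, arrays labelled lipin minus GFP arrays, of the 13 member probe sets tested (points) with limma's 95% interval (bars), ordered by role from coat proteins to the lysosomal lipase. All 13 intervals hold 0, and those of Plin5, Pnpla3 and Lipe are the widest.

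Mgll, the lipase that splits the last intermediate, monoacylglycerol, into glycerol and a fatty acid and that also degrades an endocannabinoid, had 4 probe sets. The probe set 1450391_a_at read 6089 and 5793 on the arrays labelled lipin, against 4413 and 2636 on the GFP arrays. Both arrays labelled lipin lay above both GFP arrays, the log2 difference was 0.80 ± 0.38 (limma unadjusted p = 0.0535, adjusted p = 0.962), or 1.74-fold, and it was the single member whose difference exceeded the gap within either group. It stayed positive in each fit with an array left out, with 0.43 when GFP replicate 2 was left out and 1.17 when GFP replicate 1 was.

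The other tested Mgll probe sets did not share that separation. The brightest, 1426785_s_at, read 25693 and 12868 on the arrays labelled lipin, against 18999 and 21356 on the GFP arrays, which differed by -0.15 ± 0.36 (log2; limma adjusted p = 0.977). Here the GFP arrays lay between those labelled lipin. For 1453836_a_at the signals were 8177 and 5098 on the arrays labelled lipin, against 6332 and 4999, which differed by 0.20 ± 0.36 (log2; limma adjusted p = 0.967). The 2 arrays that read lowest were lipin replicate 2 and GFP replicate 2, and the groups overlapped. The probe set 1431331_at was too dim to test, with 939 and 289 against 37.2 and 60.5. There both arrays labelled lipin lay above both GFP arrays, which were under the floor. Without lipin replicate 1 the tested probe sets stood at 0.76 for 1450391_a_at, -0.65 for 1426785_s_at and -0.14 for 1453836_a_at. No single direction can be given for Mgll.

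Lipa, the lysosomal acid lipase that degrades triacylglycerol and cholesteryl ester delivered by endocytosis and lipophagy, had small fitted differences on its tested probe sets. The brighter, 1450872_s_at, read 4195 and 5178 on the arrays labelled lipin, against 4832 and 6257 on the GFP arrays. The groups overlapped, and the log2 difference was -0.24 ± 0.36 (limma adjusted p = 0.962; 95% interval -1.0 to 0.52). With 1423141_at the signals were 2428 and 3137 against 3129 and 2723, which differed by -0.081 ± 0.41 (log2; limma adjusted p = 0.986). Lipa 1423140_at was too dim to test, with 138 and 43.7 on the arrays labelled lipin, against 196 and 673 on the GFP arrays. Without GFP replicate 2 the tested probe sets stood at -0.052 and -0.18.

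**Figure D3:**
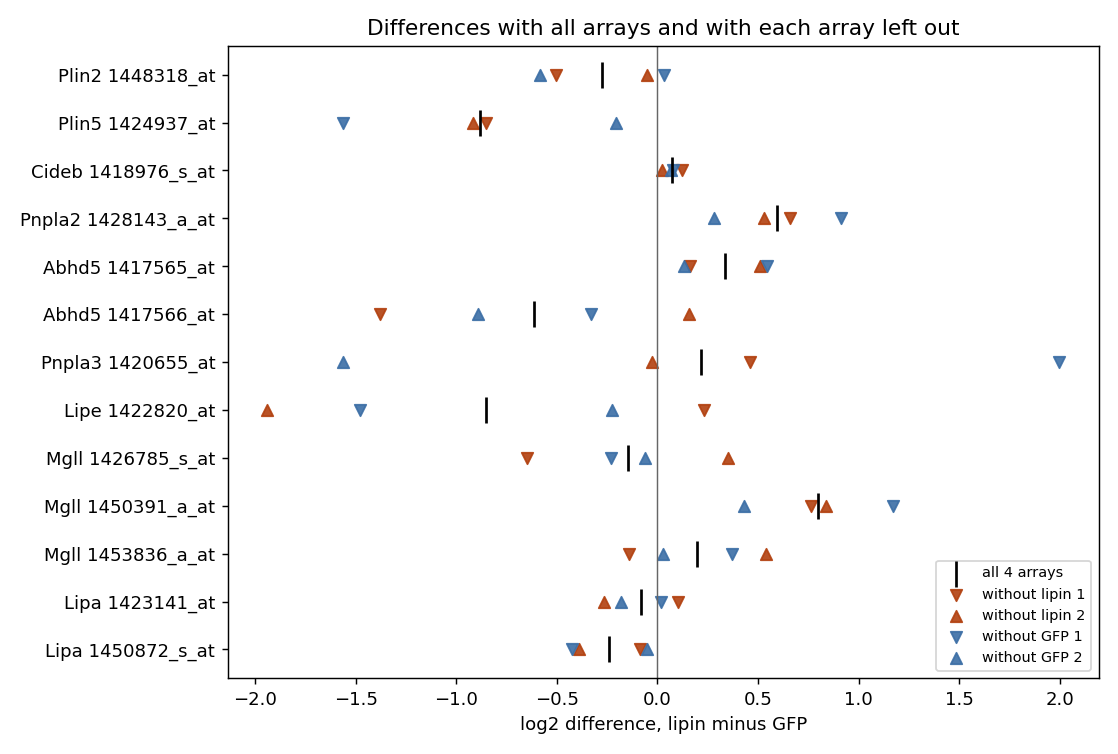
Log2 difference, arrays labelled lipin minus GFP arrays, of each tested member with all 4 arrays (black bar) and with 1 array left out (triangles: orange for an array labelled lipin, blue for a GFP array). Cideb, Pnpla2, Abhd5 1417565_at and Mgll 1450391_a_at stay above 0, Plin5 and Lipa 1450872_s_at stay below 0, and the other 7 cross it, Pnpla3 most widely.

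Around the members, 4 lists of related genes from textbook knowledge were examined, and they too were drawn up with earlier results of these data known. Other genes of droplet coat and biogenesis had 13 tested probe sets from 10 of 16 genes, with 0 called, a median log2 difference of 0.43 and 8 whose groups did not overlap, 6 with the arrays labelled lipin above and 2 with them below, against 33.0% of all probe sets tested. Hsd17b11, a droplet-associated dehydrogenase, had the smallest p among them. It read 32410 and 34096 with 1434642_at on the arrays labelled lipin, against 13563 and 17304 on the GFP arrays, a log2 difference of 1.12 ± 0.32 (limma unadjusted p = 0.00324, adjusted p = 0.962), and its dimmer probe set gave 1.64 ± 0.57. Fitm1, which helps partition triacylglycerol into droplets, read 2563 and 1120 against 267 and 207, which differed by 2.85 ± 0.95 (log2; limma adjusted p = 0.962). Mlxipl, the carbohydrate-responsive transcription factor ChREBP, gave 0.95 ± 0.50. It is not a droplet coat protein but was counted in this list, among the 6 with the arrays labelled lipin above. Of the list, 3 probe sets had an unadjusted p under 0.05 with a higher signal and 0 with a lower one, against 2.47% and 1.92% of all probe sets tested. The 3 were both probe sets of Hsd17b11 and that of Fitm1. Leaving out GFP replicate 2 gave the list a median of 0.12, and leaving out GFP replicate 1 gave 0.69.

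Other lipases, carboxylesterases and their regulators had 25 tested probe sets from 19 of 23 genes, with 0 called and a median log2 difference of 0.018. The groups did not overlap for 7 of them (28%), against 33.0% of all probe sets tested. An unadjusted p under 0.05 was found for 1 with a higher and 1 with a lower signal, against 2.47% and 1.92% of all probe sets tested. Among the carboxylesterases of the endoplasmic reticulum, Ces2a read 19010 and 23518 on the arrays labelled lipin, against 10875 and 10920 on the GFP arrays, a log2 difference of 0.96 ± 0.31. Its relative Ces2e ran the other way, with 7862 and 4510 against 13122 and 9524, a log2 difference of -0.91 ± 0.36, or -0.51 without lipin replicate 2. Abhd12, a lipase of lysophosphatidylserine, gave 1.52 ± 0.77 on its brighter probe set, a value of 0.043 without GFP replicate 1 and 3.0 without GFP replicate 2. The dimmer Abhd12 probe set, 1453367_a_at, read 1213 and 1128 on the arrays labelled lipin, against 393 and 515 on the GFP arrays. There the groups did not overlap, and the log2 difference was 1.38 ± 0.83. The limma adjusted p was 0.962 for these 3 genes, and near-identical carboxylesterase genes may share probes.

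Genes of lysosomal lipid handling and lipophagy had 32 tested probe sets from 15 of 18 genes, with 0 called and a median log2 difference of 0.059. The groups did not overlap for 12 of them (37.5%), against 33.0% of all probe sets tested. An unadjusted p under 0.05 was found for 0 with a higher and 1 with a lower signal, against 2.47% and 1.92% of all probe sets tested. The lower one was Atg7 1428610_at, with 274 and 296 on the arrays labelled lipin, against 1555 and 1542 on the GFP arrays. Its log2 difference was -2.44 ± 0.89, while the brightest Atg7 probe set gave -0.028 ± 0.48 and the third gave -0.67 ± 1.00. Npc2, which hands cholesterol out of the lysosome, had log2 differences of -0.59 ± 0.31 (brighter probe set) and -0.015 ± 0.42. Laptm4b, a lysosomal membrane protein, gave -0.47 ± 0.32, 0.18 ± 0.47 and 0.87 ± 0.55 on its probe sets from the brightest to the dimmest, and the lysosomal channel gene Mcoln1 gave 0.83 ± 0.58 and 1.20 ± 0.57. The first Mcoln1 value moved to 0.23 on leaving out GFP replicate 1 and to 1.42 on leaving out GFP replicate 2. The limma adjusted p was between 0.962 and 0.998 for all of these. Mcoln1 1416672_s_at and Laptm4b 1438365_x_at and 1436915_x_at are of types that can also match transcripts of other genes.

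Genes that make triacylglycerol and steryl ester had 11 tested probe sets from 6 of 12 genes, with 0 called. Their median log2 difference was 0.30, or -0.14 without GFP replicate 2. The groups did not overlap for 3 of them (27.3%), against 33.0% of all probe sets tested. An unadjusted p under 0.05 was found for 1 with a higher signal and 0 with a lower one, against 2.47% and 1.92% of all probe sets tested. The steryl ester enzymes of the list had no probe set, so its values cover triacylglycerol synthesis alone. Dgat2, which catalyses the last step of triacylglycerol synthesis, read 28606 and 31944 on the arrays labelled lipin, against 14158 and 22287 on the GFP arrays, which differed by 0.77 ± 0.34 (log2; limma adjusted p = 0.962) and by 0.44 without GFP replicate 1. Agpat3, an acyltransferase, gave 0.55 ± 0.46, with 0.15 when GFP replicate 1 was dropped and 0.96 when GFP replicate 2 was. Lpin2, a relative of lipin 1, gave 0.37 ± 0.37 on its brightest probe set, or -0.080 without lipin replicate 2. Its dimmer probe sets gave 0.36 ± 0.63 and -0.82 ± 0.62. On the last of these, both arrays labelled lipin lay below both GFP arrays. The Lpin1 probe sets given above are 2 of the 11 in this list, and its median without them was also 0.30.

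**Figure D4:**
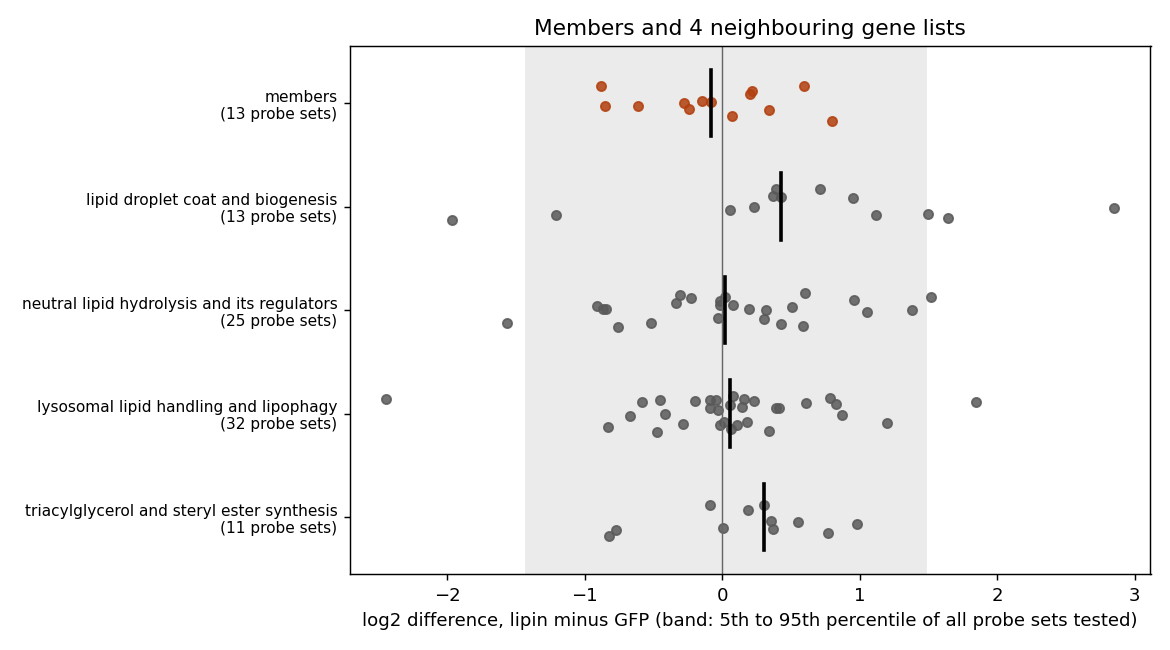
Log2 difference, arrays labelled lipin minus GFP arrays, of each tested probe set (points) for the droplet coat and lipolysis genes (orange) and for 4 lists of related genes (grey), with black bars at the medians. The grey band spans the 5th to the 95th percentile of all 13576 probe sets tested, -1.43 to 1.48, and holds all 13 orange points.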

How the data were processed

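Each of the 4 arrays measured 1 liver sample, grouped by its title. The deposited file holds linear intensity values from MAS5, per the submitters' processing notes; its version, scaling target and detection calls were not used here. MAS5 subtracts mismatch probes, which leaves dim probe sets noisy. After 64 control probe sets of 22690 were dropped, signals below 119.5 (20th percentile of the table) were set to that floor and converted to log2. The 13576 probe sets whose mean reached the 40th percentile (geometric mean 373) were tested with limma 3.58.1 in R 4.3.3 (lmFit, eBayes with an intensity trend), two-sided, adjusted by Benjamini-Hochberg over all of them. The floor understates the fold changes of dim genes. Errors are limma's standard errors, and the number of arrays limits the precision. With 2 arrays a group, the smallest two-sided p of an exact permutation test is 0.333. The fit was tested on simulated data.

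Genes were named by the platform annotation, in which 20380 probe sets had 1 symbol, 691 several, and 1555 no entry. The values name no genome build, and promoter coordinates are those of the RefSeq table. Named are all member, Lpin1 and Ppara probe sets. Of each of 4 pathway lists, the 3 genes with the smallest p on their brightest tested probe set are named. Atg7 is named in addition, after its values were seen. Alb, Adipoq, Lep, Plin4, Fabp4, Retn and Dcn are marker genes named after their values were seen. The members and lists were chosen with earlier results of these data known. Markers covered hepatocytes, adipocytes, macrophages, stellate cells, T and NK cells, and endothelium. The alternatives were quantile normalization or centring on the median, a lower and a higher floor, no filter or a stricter one, limma without the trend or with robust moderation, a block on the replicate number, leaving out each array, and looser thresholds.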

Additional observations from a re-analysis of the deposited data

How the results depend on the processing

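The count of members called was 0 in each direction in every alternative run, an adjusted p under 0.1 and an unadjusted p under 0.05 included. Over all probe sets tested, limma called 34 higher and 18 lower with the replicate number as a block; the prior degrees of freedom were then infinite, as they were without either array labelled lipin, so that the spread was taken from the trend with intensity and not from the gene. With an array left out, the fit takes the remaining array's spread from the other group. Over all probe sets tested, the deviations of same-numbered arrays had a correlation of 0.028, and the number is not taken to pair them. That value does not show whether fewer genes shared a deviation. Hepatocyte, adipocyte, stellate cell and endothelial marker sums were higher on replicate 2 than on replicate 1 of both groups. Macrophage sums were lower on replicate 2 of both groups, and T and NK cell sums moved in opposite directions. The cause of these shifts was not tested. With an array left out, 0 to 8 were higher and 0 to 6 lower, the most without lipin replicate 1. Ppara was past the threshold in 2 of 13 alternatives, neither of which measures its own spread, with 2.32 under the replicate block (adjusted p = 8.67e-06) and 2.96 without lipin replicate 1 (adjusted p = 0.00154), while its adjusted p was 1.00 without lipin replicate 2.

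Members that lay higher in both arrays labelled lipin than in either GFP array numbered 3 to 6 with an array left out, 2 with median centring and 4 with no filter on dim probe sets. Those below numbered 3 to 4 with an array left out, 3 with no filter on dim probe sets and 0 with the filter at the 60th percentile. Over all probe sets tested, groups did not overlap in 62.1% to 74.6% with an array left out, where fewer arrays make separation more common, in 29.4% with no filter, in 33.9% with the stricter filter and in 31.3% with median centring. The members' median ran from -0.063 to 0.11 with an array left out and from -0.15 to -0.0039 in the other alternatives. With an array left out, log2 differences that changed sign ran from -0.58 to 0.032 for Plin2, -1.56 to 2.00 for Pnpla3, -1.94 to 0.23 for Lipe, -1.38 to 0.16 for Abhd5 1417566_at, -0.65 to 0.35 for Mgll 1426785_s_at, -0.14 to 0.54 for Mgll 1453836_a_at, -0.27 to 0.10 for Lipa 1423141_at, -0.57 to 0.95 for Lpin1 1426516_a_at and -0.080 to 0.82 for Lpin2. The cause was not tested. Leaving Lpin1 out of the synthesis list was added after the data were seen. No detection calls were used, so how far a given signal exceeds background is unknown.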

Other observations

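Probe sets of the same gene often pointed in opposite directions in these data. Of 2628 genes with several tested probe sets, 1445 (55.0%) had log2 differences on both sides of 0, and the median range between a gene's probe sets was 0.82. Among the droplet genes, Mgll and Abhd5 were of this kind, each with a range of 0.95, wider than that of 55.3% and 55.4% of these genes, while the tested Lipa probe sets differed by 0.16, narrower than in most (8.83% were narrower still).

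The remaining marker lists had these summed signals. Hepatic stellate cell and fibroblast genes summed to 24058 and 45467 on the arrays labelled lipin, against 39178 and 57293 on the GFP arrays. Such sums follow the brightest probe sets, and Dcn alone read 11734 and 29832, against 29167 and 41994. Of 8 tested probe sets in that list, 3 were higher in both arrays labelled lipin than in both GFP arrays and 1 was lower. The shares over all probe sets tested were 17.1% and 15.9%. T and NK cell genes summed to 2995 and 2903, against 3003 and 4238, and endothelial genes to 20298 and 26794, against 19728 and 28016. Of 3 tested T and NK cell probe sets, 0 were higher and 2 were lower in both arrays labelled lipin than in both GFP arrays. Of 7 tested endothelial probe sets, 1 was higher and 0 were lower. The shares given above for all probe sets apply here as well.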
